A study of Mus musculus with 12 samples.

Results

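The genes described here are a list of 40 interferon-stimulated genes, transcripts that mammalian cells raise when interferon reaches them. Members were taken by symbol from the 53379 gene IDs counted in each library and kept where at least 10 counts were present in 3 or more of the 12 libraries. Of the 40 listed genes 39 were kept, and all 39 also passed the filter of the test across 15208 genes. The exception was Igtp, an immunity-related GTPase, which is listed at 0 in all 12 libraries and whose exons overlap those of Irgm2 on the same strand.

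RNA was sequenced from interscapular brown adipose tissue, the fat that burns lipid to make heat, of 12-week-old C57BL/6 mice killed at zeitgeber time 9. Each genotype was sampled after 6 h of cold with food and at room temperature, giving 4 groups of 3 pools, KO cold, WT cold, KO room temperature and WT room temperature. KO stands for mice labelled CDK7 bKO, which lack the kinase gene Cdk7 in brown fat, and WT for their control littermates, labelled wild type. Every pool joined RNA of 2 mice of the same genotype and condition, 250 ng from each. The promoter behind the deletion, the sex of the mice and the temperature in the cold are not stated in the sources used here. The labels call the 3 pools of a group biological triplicates, and a pool is named below by group and number, RT standing for room temperature.

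Interferons are secreted proteins that bind receptors on the same or neighbouring cells. The receptor-bound kinases Jak1 and Tyk2 then phosphorylate transcription factors of the STAT family. Complexes that hold Stat2 and Irf9 bind the interferon-stimulated response element in promoters, while STAT dimers bind the gamma-activated site. The induced genes encode sensors of foreign nucleic acid, enzymes that block viral translation and replication, and factors that raise or limit the response itself.

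The response element was searched in the RefSeq promoters of GRCm38.p6, windows of 250 bases before to 50 bases after each annotated start. Of the 40 listed genes 30 had a window there. As searched it reads GAAANNGAAA, on both strands, with overlapping matches allowed. It was present in 17 of the 30 members (56.7%), against 1079 of 27025 genes with a window (3.99%) and 3.44% of all 32851 windows. The gamma-activated site, searched as TTCNNNGAA on both strands, was present in 8 of the 30 members (26.7%) and in 9.55% of genes. In 1 member a match of each kind shared bases. The stretches below are shown because they hold the element in members from the ISG15, IFIT, viperin and GTPase groups whose levels are described further on. Each is written 5′ to 3′ on the strand of its gene, and capitals mark the bases that match the element or its reverse complement.
Isg15, chr4:156200855-156200916, minus strand: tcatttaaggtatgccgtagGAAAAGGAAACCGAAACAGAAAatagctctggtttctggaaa
Ifit1, chr19:34640765-34640833, plus strand: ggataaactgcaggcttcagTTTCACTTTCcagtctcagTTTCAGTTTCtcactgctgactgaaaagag
Ifit3, chr19:34583353-34583436, plus strand: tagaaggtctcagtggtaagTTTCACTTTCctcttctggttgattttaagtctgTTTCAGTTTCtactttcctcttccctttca
Ifit3b, chr19:34607749-34607832, plus strand: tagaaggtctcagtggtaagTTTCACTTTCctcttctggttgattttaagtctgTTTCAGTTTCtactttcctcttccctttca
Rsad2, chr12:26456543-26456592, minus strand: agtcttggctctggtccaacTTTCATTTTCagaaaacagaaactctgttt
Gbp7, chr3:142530263-142530312, plus strand: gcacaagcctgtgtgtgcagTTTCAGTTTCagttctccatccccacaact
Gbp3, chr3:142559979-142560034, plus strand: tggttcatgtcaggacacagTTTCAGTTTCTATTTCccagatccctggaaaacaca
Gbp2, chr3:142620584-142620633, plus strand: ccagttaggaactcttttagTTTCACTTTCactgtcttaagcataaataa
Irgm1, chr11:48871421-48871470, minus strand: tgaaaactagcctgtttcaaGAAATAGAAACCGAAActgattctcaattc

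The Isg15 stretch held 3 overlapping matches. The stretches of Ifit3 and Ifit3b were identical over 84 bases. A match describes the letters in a window and does not show that a factor bound there. Among the members with a window, the element was in 12 of the 19 that fell with cold in WT and in 4 of the other 10 that were tested, given here without a test.

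Gene counts per library summed to between 27609717 and 36792555. Gene positions below are in GRCm38. Levels are given as CPM, read counts scaled to library size with normalisation factors, and serve to compare pools for 1 gene, not genes with each other. Log2 fold changes carry ± 1 standard error, and mean CPM carries ± 1 SD over the 3 pools of a group. Adjusted p is that of edgeR's quasi-likelihood test, adjusted by Benjamini-Hochberg over the 15208 genes tested, and a gene is said to rise, fall or be higher or lower by the test where it is under 0.05. Cdk7 itself had 5.39, 4.85 and 5.39 CPM in KO cold pools, against 17.95, 16.1 and 15.7 CPM in WT cold pools, and 4.35, 5.15 and 5.77 CPM in KO pools, against 16.4, 15.1 and 16.1 CPM in WT pools, at room temperature. Its log2 fold change was -1.67 ± 0.12 in the cold and -1.64 ± 0.12 at room temperature. The exons of 13 of the 39 members overlap those of another annotated gene, so their values are uncertain: Irf1, Irf7, Irf9, Dhx58, Eif2ak2, Oasl1, Usp18, Gbp2, Gbp7, Parp9, Parp14, Ifi35 and Rtp4. For Irf9, Gbp7, Parp14 and Rtp4 the overlapping gene is on the same strand. For the others it is on the opposite strand, which matters less where counting is strand-specific.

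As a group, the 39 interferon-stimulated genes were lowest in WT mice in the cold, and their levels in KO mice in the cold were close to those of both groups at room temperature. In the cold, 35 of 39 were higher in KO than in WT (89.7%, against 25.9% of all genes tested) and 1, Ifi27, was lower (2.56%, against 27.8%). The median log2 fold change was 0.86, against 0.01 over all genes. In 35 members, Mx1 among them and Eif2ak2 not, every KO pool lay above every WT pool, which was the case for 30.6% of all genes. Oas3 reached 10 counts only in the 3 KO cold libraries and was kept through them, so its higher level there supports nothing. Counting without it, a choice made after seeing the data, 34 of 38 were higher, 1 was lower and the median was 0.84. Scaling by library totals alone moved the median of all genes to 0.45 and the calls over all genes to 7881 higher and 1073 lower, against 3939 and 4222 with normalisation factors. The members' median was then 1.30, with 38 higher and 1 lower. In bulk tissue, fewer cells of a type that expresses a gene and less of its RNA per cell cannot be told apart.

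The cold itself moved these genes in WT. Of the 39, 23 fell with cold in WT (59%, against 23.2% of all genes) and 1, Oas2, rose (2.56%, against 23%). The median was -0.62, against -0.03 over all genes, and 35 of 39 values were below 0. In 20 members every cold WT pool lay below every WT pool at room temperature, which was the case for 27.9% of all genes. With library totals alone, 27 members fell and 0 rose, with a median of -0.81, against -0.23 and 4813 falls and 1826 rises over all genes (3531 and 3503 with normalisation factors). In KO mice 3 members, Oas2, Oas3 and Samd9l, rose with cold (7.69%, against 7.29% of all genes) and 0 fell by edgeR's test (against 7.56%), with a median of 0.05. Without Oas3, which was kept only through its KO cold libraries, 2 of 38 rose. At an unadjusted p under 0.05 there were 6 in KO in either direction, DESeq2 gave 0 falls, and limma's voom test gave 1. The 3 rises rested on single pools: 0 members rose without KO RT 6 or without KO cold 1, and 1 rose without KO RT 4. Over all genes the rises with cold in KO dropped as well, from 1109 to 641, 601 and 724 in these settings. The loss is thus not particular to the members. Without the 2 pools richest in muscle transcripts (KO RT 6 and WT RT 2) 1 member rose, against 586 of all genes. By limma's voom test 6 members rose, against 1960 of all genes.

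The difference between the cold responses of KO and WT was tested directly as an interaction. It was above 0 in 37 of 39 members, with a median of 0.69, against 0.01 over all genes. It passed the test in 14 members, all with the higher response in KO (35.9%, against 10.6% of all genes), and in 0 with the lower response (12.9% of all genes). With library totals alone 23 passed, with 2388 higher and 711 lower responses in KO over all genes, against 1614 and 1967 with normalisation factors. At an unadjusted p under 0.05 the count was 25 in either direction, and DESeq2 and limma's voom test likewise gave 0 members with the lower response. None of the 23 members that fell in WT fell in KO by edgeR's test, and 13 of the 14 members past the interaction, all but Samd9l, were among those 23. The interaction contains the cold response of WT, so this overlap is partly built in and supports nothing. Irf7, Dhx58, Ifit1, Ifit3, Ifit3b, Usp18, Rsad2, Bst2, Xaf1 and Lgals3bp fell in WT and did not pass the interaction. For these genes a difference between the cold responses is not shown.

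**Figure D1:**
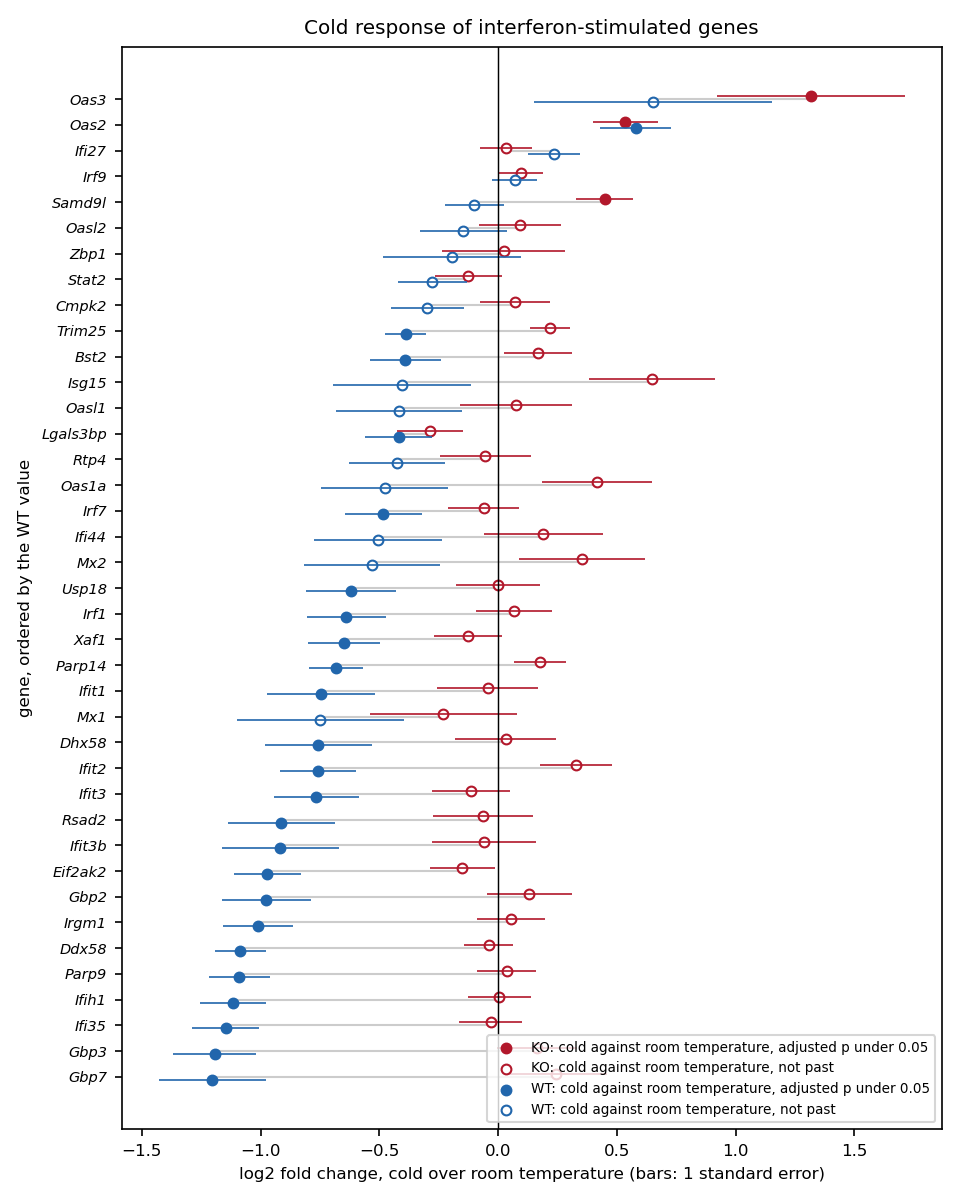
Log2 fold change of cold over room temperature (horizontal axis) of the 39 members (rows, ordered by the WT value) in KO (red, upper symbol) and WT (blue, lower symbol), bars giving 1 standard error and filled symbols an adjusted p under 0.05. WT symbols lie below 0 for 35 members and are filled and below 0 for 23, whereas in KO 3 symbols are filled, all above 0.

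At room temperature the genotypes differed in both directions. Of the 39 members 8 were higher in KO (20.5%, against 19.3% of all genes) and 6 were lower (15.4%, against 21%), shares close to those of all genes, with a median of 0.12. With library totals alone the split was 12 higher and 1 lower, and over all genes 4739 higher and 1267 lower, against 2940 and 3198 with normalisation factors. The 8 higher ones, Irf7, Zbp1, Oas1a, Oas2, Oasl2, Trim25, Xaf1 and Lgals3bp, were also higher in KO in the cold. Of the 6 lower ones, Ddx58, Eif2ak2, Gbp3, Irgm1 and Parp9 were higher in KO in the cold, and Ifi27 was lower at both temperatures. The count of 8 was 4 without WT RT 2 and 2 without WT RT 2 and KO RT 6. Over all genes the count of 2940 higher in KO dropped as well, to 2187 and 1620 in these settings.

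**Figure D2:**
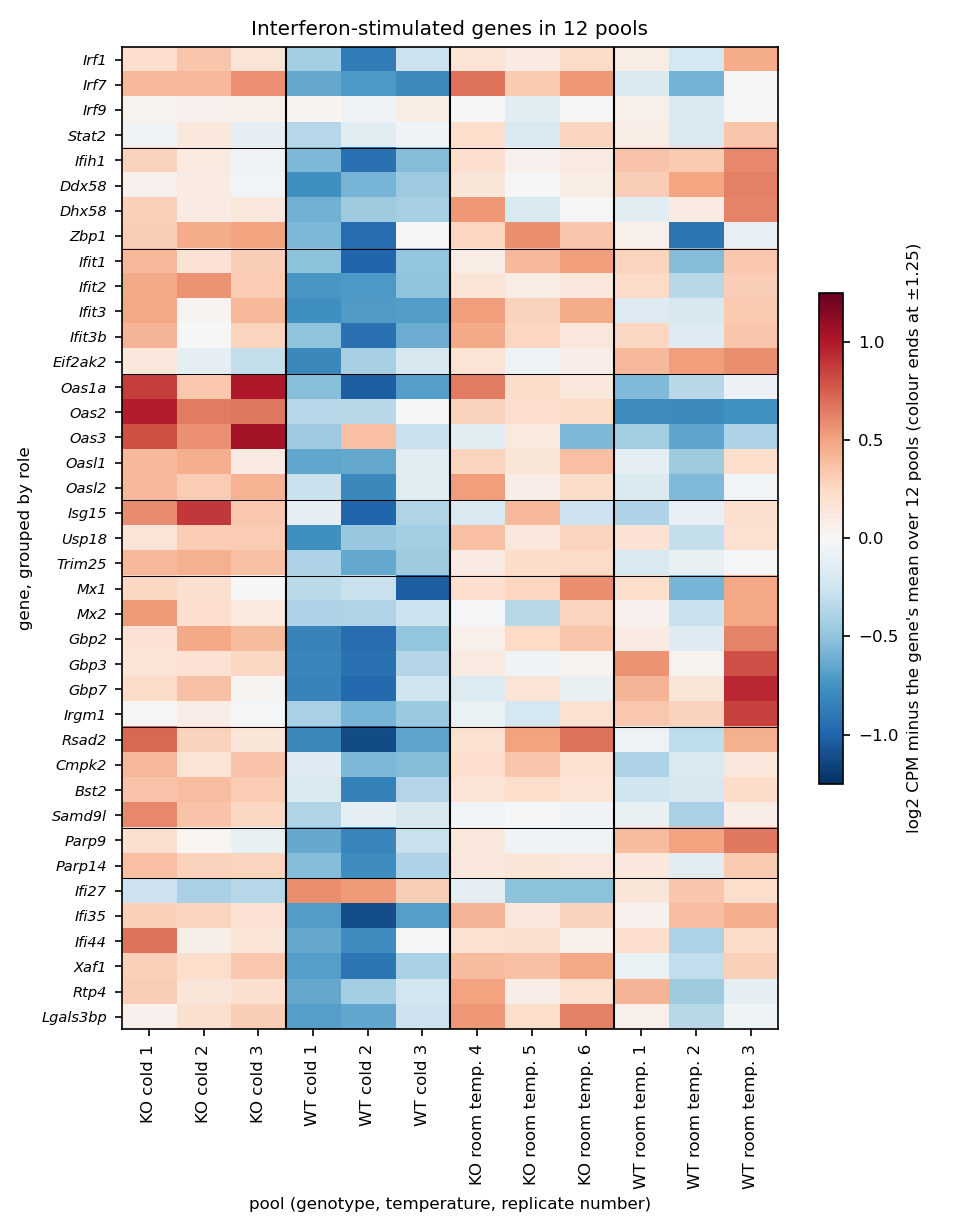
Log2 CPM of the 39 members (rows, grouped by role) in the 12 pools (columns), as the difference from the mean of each gene over all pools, red above and blue below it. The 3 WT cold columns are blue in most rows, with the lowest group mean there for 35 members, and Ifi27 is red in them.

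Pools of a group did not move alike. Relative to the mean of each gene over all pools, the median over the 39 members was 0.31, 0.22 and 0.26 (log2) in the KO cold pools, against -0.56, -0.72 and -0.37 in the WT cold pools. At room temperature it was 0.19, 0.15 and 0.19 in the KO pools, against 0.07, -0.20 and 0.31 in the WT pools. The WT pools at room temperature thus spanned the widest range. WT RT 3 lay above its group mean in 37 of 39 members, WT RT 2 in 5, WT cold 3 in 34 and WT cold 2 in 11. In WT the pools numbered 3 were thus high and those numbered 2 low at both temperatures. Without WT RT 3, 17 members fell with cold in WT.

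The transcription factors of the response split into those that moved and those that did not. Irf7, the factor that amplifies type I interferon production (chromosome 7, 141262706 to 141266481), had 7.16, 7.21 and 8.05 CPM in KO cold pools, against 3.41, 3.22 and 3.05 CPM in WT cold pools. At room temperature Irf7 had 8.70, 6.77 and 7.89 CPM in KO, against 4.72, 3.53 and 5.31 CPM in WT. KO pools lay above WT pools at both temperatures without overlap. The log2 fold change was 1.21 ± 0.16 in the cold (adjusted p = 1e-05) and 0.79 ± 0.15 at room temperature (adjusted p = 0.00067). With cold, Irf7 fell in WT (-0.48 ± 0.16, adjusted p = 0.021), a call that was lost without WT RT 3 (adjusted p = 0.12), WT cold 2 (0.053) or WT cold 3 (0.066).

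Irf1, an early-induced activator of many interferon target genes (chromosome 11, 53770014 to 53778374), passed the test between genotypes in the cold and not at room temperature. Levels were 21.7, 23.9 and 20.96 CPM in KO cold pools, against 13.9, 10.2 and 15.6 CPM in WT cold pools. At room temperature they were 21.2, 20.1 and 22.2 CPM in KO, against 19.98, 16.1 and 25.98 CPM in WT. The cold groups did not overlap, and the KO values at room temperature lay within the WT range. With cold, the log2 fold change of Irf1 was 0.07 ± 0.16 in KO (adjusted p = 0.83), against -0.64 ± 0.17 in WT (adjusted p = 0.0058). The interaction of 0.71 ± 0.23 (adjusted p = 0.039) missed the threshold without any of 10 of the 12 pools, all but WT RT 2 and WT cold 3, with adjusted p up to 0.091.

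Stat2 and Irf9 encode parts of the factor that binds the response element. Stat2 had 17.5, 19.9 and 16.7 CPM in KO cold pools, against 14.2, 16.5 and 17.5 CPM in WT cold pools, and 21.2, 15.9 and 21.98 CPM in KO, against 19.4, 15.9 and 23.1 CPM in WT, at room temperature. Irf9 had 13.9, 14.05 and 14.2 CPM in KO cold pools, against 13.9, 13.2 and 14.5 CPM in WT cold pools, and 13.5, 12.3 and 13.7 CPM in KO, against 14.1, 11.9 and 13.6 CPM in WT, at room temperature. KO and WT pools of both genes overlapped at both temperatures, and neither gene passed any test. The cold response in WT was -0.28 ± 0.14 for Stat2 (adjusted p = 0.13) and 0.07 ± 0.09 for Irf9 (adjusted p = 0.57).

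The cytosolic sensors of foreign nucleic acid were lowest in WT in the cold. All 4 sensors were higher in KO in the cold, 3 fell with cold in WT, and 2 passed the interaction. Here and in the groups below, 25.9% of all genes were higher in KO in the cold and 19.3% at room temperature. Of all genes 23.2% fell with cold in WT, and 10.6% passed the interaction with the higher response in KO. Deviations of the members from their group means had a median pairwise correlation of 0.41, so the role groups are not separate results. Ifih1, which encodes the long double-stranded RNA sensor MDA5 (chromosome 2, 62595798 to 62646255), had 9.28, 8.24 and 7.34 CPM in KO cold pools, against 5.10, 3.90 and 5.14 CPM in WT cold pools. At room temperature Ifih1 had 8.78, 7.85 and 8.15 CPM in KO, against 9.70, 9.53 and 11.5 CPM in WT. WT cold pools were below every other pool. The log2 fold change of Ifih1 with cold was 0.01 ± 0.13 in KO (adjusted p = 0.99), against -1.12 ± 0.14 in WT (adjusted p = 6.2e-06), and the interaction was 1.12 ± 0.19 (adjusted p = 0.0007).

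Ddx58, which encodes the sensor RIG-I for short RNA with a triphosphate end (chromosome 4, 40203773 to 40239828), was likewise lowest in WT in the cold. It had 15.5, 15.97 and 14.6 CPM in KO cold pools, against 8.73, 9.94 and 10.9 CPM in WT cold pools, and 16.5, 14.8 and 15.9 CPM in KO, against 18.5, 20.97 and 23.1 CPM in WT, at room temperature. The WT pools at room temperature were the highest set and the WT cold pools the lowest. KO was higher than WT in the cold (0.64 ± 0.11, adjusted p = 0.00011) and lower at room temperature (-0.41 ± 0.10, adjusted p = 0.005), the lower value missing the threshold with library totals alone (adjusted p = 0.25). With cold, Ddx58 had a log2 fold change of -0.04 ± 0.10 in KO, against -1.09 ± 0.11 in WT (adjusted p = 6.2e-07), and the interaction was 1.05 ± 0.15 (adjusted p = 0.00021). The related helicase gene Dhx58 (LGP2), which tunes both sensors, fell in WT (-0.76 ± 0.22) except without WT RT 3 (adjusted p = 0.085). Its higher level in KO in the cold (0.70 ± 0.22) missed the threshold without KO cold 1 (adjusted p = 0.053) or WT cold 1 (0.058). Zbp1, a sensor of left-handed nucleic acid, was higher in KO in the cold (0.94 ± 0.28), but not past the threshold without WT cold 2 (adjusted p = 0.051), and had -0.19 ± 0.29 with cold in WT (adjusted p = 0.62). Its higher level in KO at room temperature (0.72 ± 0.27) missed the threshold without WT RT 2 (adjusted p = 0.21), WT RT 3, WT cold 1 or any KO pool but KO RT 4.

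**Figure D3:**
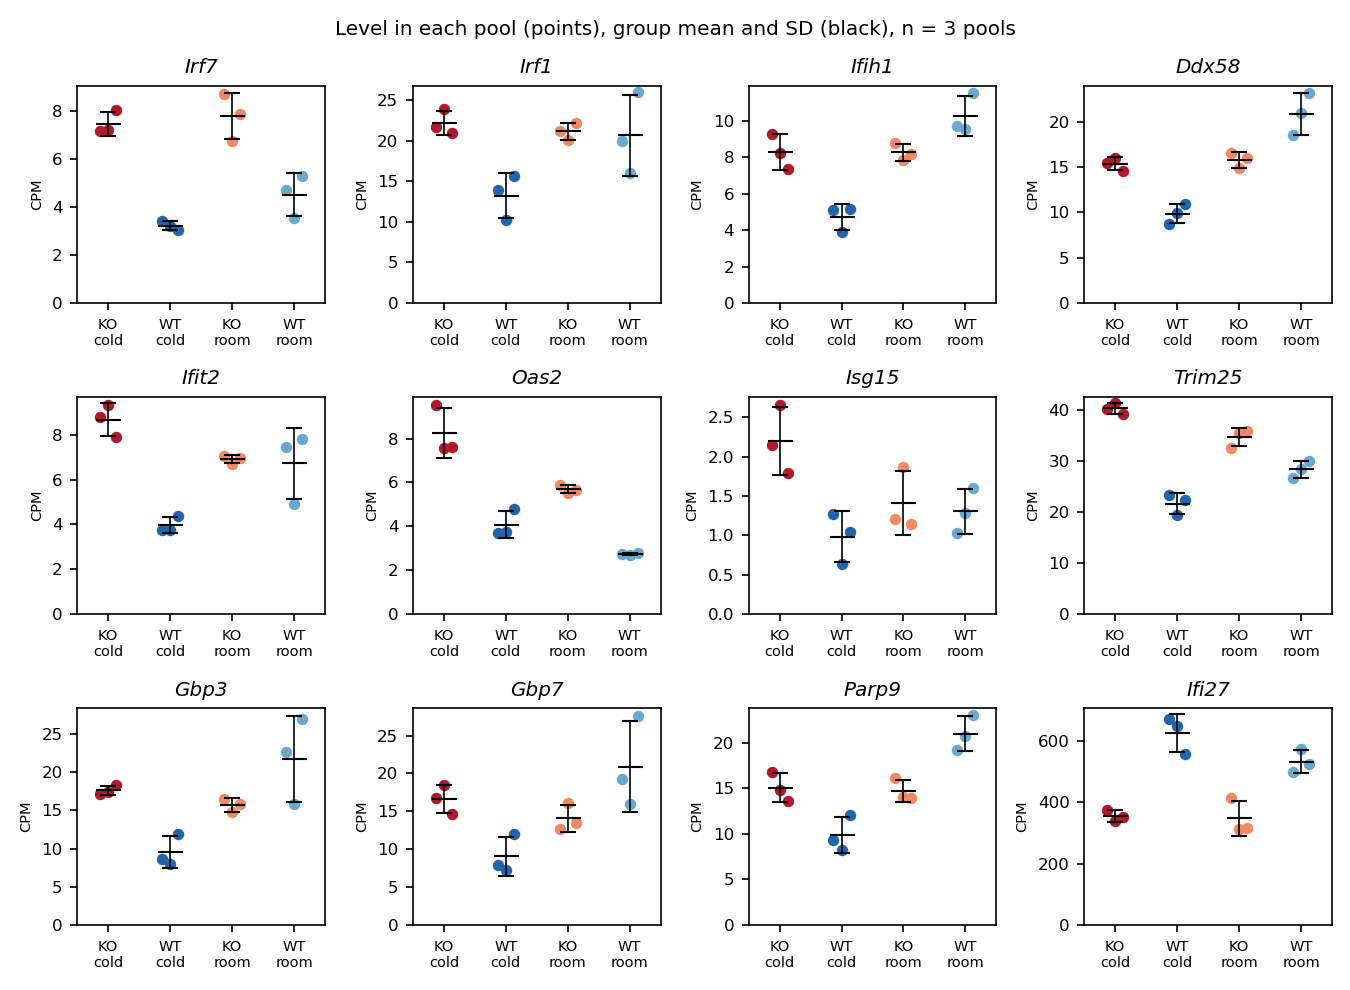
CPM of 12 members in each pool (points) with the group mean and SD (black), n = 3 pools per group, for KO cold, WT cold, KO room temperature and WT room temperature. For Ifih1, Ddx58, Gbp3, Gbp7 and Parp9 the WT cold pools lie lowest, for Oas2 the KO cold pools lie highest, and for Ifi27 the WT pools lie above the KO pools.

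All 5 genes of the IFIT family and PKR, which bind viral RNA or stop its translation, fell with cold in WT and were higher in KO in the cold. Ifit2 had 8.80, 9.33 and 7.89 CPM in KO cold pools, against 3.75, 3.77 and 4.39 CPM in WT cold pools. At room temperature Ifit2 had 7.06, 6.71 and 6.98 CPM in KO, against 7.48, 4.92 and 7.81 CPM in WT. The KO cold pools were the highest set and the WT cold pools the lowest. The KO to WT difference in the cold was 1.13 ± 0.16 (adjusted p = 2.3e-05), and the interaction was 1.09 ± 0.22 (adjusted p = 0.0024). Ifit1, Ifit3 and Ifit3b, which lie beside it on chromosome 19, were higher in KO cold pools by 0.98 ± 0.23, 1.08 ± 0.18 and 1.01 ± 0.24, and none of these 3 passed the interaction. The fall of Ifit1 with cold in WT missed the threshold without WT RT 3 (adjusted p = 0.074) or WT cold 2 (0.069). Ifit3 and Ifit3b resemble each other closely, and reads that align to both are in neither count.

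Eif2ak2, which encodes the double-stranded RNA-dependent kinase PKR, had 15.2, 12.8 and 11.3 CPM in KO cold pools, against 7.87, 10.3 and 12.1 CPM in WT cold pools. At room temperature it had 15.6, 13.3 and 14.7 CPM in KO, against 18.4, 20.03 and 20.9 CPM in WT. The cold groups overlapped, and WT pools at room temperature were above all others. Eif2ak2 fell with cold in WT by 0.97 ± 0.14 on the log2 scale (adjusted p = 2.8e-05), with an interaction of 0.82 ± 0.19 (adjusted p = 0.0064). The KO to WT difference in the cold, 0.38 ± 0.14 (adjusted p = 0.031), missed the threshold without KO cold 1 (adjusted p = 0.17), KO cold 2 (0.058), WT cold 1 (0.19) or WT cold 2 (0.054). At room temperature the lower value in KO (-0.44 ± 0.14) missed it without KO RT 5 (adjusted p = 0.063) and with library totals alone (0.25).

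The oligoadenylate synthetase family is named for enzymes that make the second messenger activating the nuclease RNase L. Apart from Oas3, which was kept only through its KO cold libraries, all 4 members were higher in KO in the cold and 3 at room temperature, and with cold 1, Oas2, rose in both genotypes. Oas2 (chromosome 5, 120730333 to 120749853) had 9.56, 7.59 and 7.61 CPM in KO cold pools, against 3.71, 3.72 and 4.80 CPM in WT cold pools. At room temperature Oas2 had 5.88, 5.53 and 5.67 CPM in KO, against 2.72, 2.70 and 2.78 CPM in WT. The 4 groups did not overlap. KO exceeded WT by 1.02 ± 0.14 in the cold (adjusted p = 2.1e-05) and 1.06 ± 0.15 at room temperature (adjusted p = 3.5e-05). Cold raised Oas2 by 0.54 ± 0.14 in KO (adjusted p = 0.015) and by 0.58 ± 0.15 in WT (adjusted p = 0.0046), the rise in KO missing the threshold without KO cold 1 (adjusted p = 0.11) or KO RT 6 and the rise in WT with library totals alone (0.084).

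Oas1a had 2.88, 1.95 and 3.17 CPM in KO cold pools, against 1.01, 0.681 and 0.894 CPM in WT cold pools, and 2.46, 1.81 and 1.70 CPM in KO, against 0.997, 1.17 and 1.44 CPM in WT, at room temperature. Neither pair of groups overlapped. The log2 fold change in the cold, 1.62 ± 0.26 (adjusted p = 6.6e-05), was the largest rise among the 39 members in that comparison. At room temperature it was 0.72 ± 0.24 (adjusted p = 0.027), which missed the threshold without KO RT 4 (adjusted p = 0.12), WT RT 1 (0.084) or WT RT 2 (0.079). Oas1a has close copies beside it in the genome, so its count may miss reads that align to several of them. Oas3 was the scarcest member, with 0.531, 0.434 and 0.647 CPM in KO cold pools, against 0.150, 0.363 and 0.186 CPM in WT cold pools. It had 21, 16 and 21 counts in the KO cold libraries, against 4, 8 and 5 in the WT cold ones, and 8, 9 and 4 in KO, against 4, 4 and 6 in WT, at room temperature. Its log2 fold changes, 1.22 ± 0.41 for KO over WT in the cold and 1.32 ± 0.39 for cold in KO, are given as a description. The higher level of Oasl2 in KO at room temperature (0.54 ± 0.18) missed it without KO RT 4 (adjusted p = 0.1) or WT RT 2 (0.12).

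In the ISG15 system all 3 genes were higher in KO in the cold. Isg15, the ubiquitin-like modifier that gives the group its name, averaged 2.20 ± 0.437 CPM in KO cold pools and 0.984 ± 0.324 CPM in WT cold pools, a difference of 1.14 ± 0.28 (adjusted p = 0.0026). Usp18, the protease that removes Isg15 and damps receptor signalling, had 3.03, 3.39 and 3.39 CPM in KO cold pools, against 1.54, 1.91 and 1.97 CPM in WT cold pools. At room temperature Usp18 had 3.53, 2.99 and 3.29 CPM in KO, against 3.07, 2.16 and 3.10 CPM in WT. The cold groups did not overlap and the room-temperature groups did. The fall of Usp18 in WT (-0.62 ± 0.19, adjusted p = 0.013) missed the threshold without WT RT 3 (adjusted p = 0.059) or WT cold 1 (0.065).

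Trim25, the ubiquitin ligase that activates RIG-I (chromosome 11, 88999376 to 89020293), had 40.4, 41.5 and 39.4 CPM in KO cold pools, against 23.3, 19.5 and 22.3 CPM in WT cold pools. At room temperature Trim25 had 32.6, 35.7 and 35.995 CPM in KO, against 26.7, 28.5 and 30.1 CPM in WT. The 4 groups did not overlap, with KO cold highest and WT cold lowest. KO was higher by 0.90 ± 0.09 in the cold (adjusted p = 4.9e-07) and 0.29 ± 0.08 at room temperature (adjusted p = 0.012), the value at room temperature missing the threshold without WT RT 1 (adjusted p = 0.05 after rounding). The cold response of Trim25 was a log2 fold change of 0.22 ± 0.08 in KO (adjusted p = 0.091), against -0.39 ± 0.09 in WT (adjusted p = 0.0014), and the interaction was 0.61 ± 0.12 (adjusted p = 0.0019).

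Among the interferon-inducible GTPases, the guanylate-binding proteins Gbp7 and Gbp3 had the largest falls of all 39 members with cold in WT, -1.20 ± 0.23 and -1.19 ± 0.18. These proteins attack the membranes around intracellular microbes. Of the 6 tested GTPases 5 were higher in KO in the cold, 4 fell with cold in WT, and the same 4, Gbp2, Gbp3, Gbp7 and Irgm1, passed the interaction. Gbp3 (chromosome 3, 142560026 to 142573209) had 17.1, 17.4 and 18.3 CPM in KO cold pools, against 8.66, 7.94 and 11.9 CPM in WT cold pools. At room temperature Gbp3 had 16.5, 14.7 and 15.8 CPM in KO, against 22.6, 15.8 and 26.9 CPM in WT. WT cold pools were lowest without overlap, while the WT pools at room temperature spread over a range that took in part of the KO values. With cold, Gbp3 had a log2 fold change of 0.16 ± 0.17 in KO, against -1.19 ± 0.18 in WT (adjusted p = 8.9e-05), and the interaction was 1.36 ± 0.24 (adjusted p = 0.0016). Its lower value in KO at room temperature (-0.47 ± 0.17, adjusted p = 0.039) missed the threshold without WT RT 3 (adjusted p = 0.17), WT RT 1 or any of the 6 KO pools.

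Gbp2 (chromosome 3, 142620602 to 142638008) had 27.2, 33.4 and 31.5 CPM in KO cold pools, against 13.3, 12.3 and 17.02 CPM in WT cold pools. At room temperature Gbp2 had 24.98, 28.6 and 30.6 CPM in KO, against 25.6, 21.4 and 36.9 CPM in WT. The cold groups were far apart and the room-temperature groups overlapped. KO was higher in the cold by 1.11 ± 0.19 (adjusted p = 0.0004), and the interaction was 1.11 ± 0.26 (adjusted p = 0.0099). Gbp7 averaged 16.6 ± 1.89 CPM in KO cold pools and 9.06 ± 2.59 CPM in WT cold pools, and its interaction of 1.44 ± 0.31 (adjusted p = 0.0074) was the largest of the 39 members.

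Irgm1, an immunity-related GTPase that directs autophagy of microbes, had 10.7, 11.1 and 10.4 CPM in KO cold pools, against 7.95, 7.03 and 7.60 CPM in WT cold pools. At room temperature Irgm1 had 9.96, 9.02 and 12.1 CPM in KO, against 13.4, 12.9 and 19.2 CPM in WT. KO lay between the WT groups at both temperatures. The difference was 0.51 ± 0.15 in the cold (adjusted p = 0.0077) and -0.55 ± 0.14 at room temperature (adjusted p = 0.0053), the value at room temperature missing the threshold with library totals alone (adjusted p = 0.11). The interaction of Irgm1 was 1.06 ± 0.20 (adjusted p = 0.0015). Mx1 and Mx2, of a family of dynamin-like GTPases that trap viral capsids, were scarce. The annotation lists Mx2 as a polymorphic pseudogene. Mx1 had 0.81 ± 0.35 in the cold with adjusted p = 0.059, and Mx2 had 0.73 ± 0.28 with adjusted p = 0.037. The Mx2 call missed the threshold without any cold pool but KO cold 3, with adjusted p from 0.056 to 0.14.

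The 4 genes of viperin, CMPK2, tetherin and SAMD9L were all higher in KO in the cold, and 4 of 4 values were above 0 at room temperature, 1 of them at an unadjusted p under 0.05. Rsad2, which encodes viperin, the enzyme that makes a chain-terminating nucleotide (chromosome 12, 26442746 to 26456452), had 24.3, 17.98 and 16.4 CPM in KO cold pools, against 8.36, 6.72 and 9.31 CPM in WT cold pools. At room temperature Rsad2 had 16.9, 20.9 and 23.7 CPM in KO, against 14.1, 11.8 and 20.1 CPM in WT. WT cold pools were below every other pool. KO was higher in the cold by 1.26 ± 0.22 (adjusted p = 0.00066), and Rsad2 fell with cold in WT by 0.91 ± 0.22 on the log2 scale (adjusted p = 0.006). Its neighbour Cmpk2, a mitochondrial nucleotide kinase, had 9.28, 7.78 and 8.88 CPM in KO cold pools, against 6.15, 4.63 and 4.69 CPM in WT cold pools. At room temperature Cmpk2 had 7.99, 8.80 and 7.92 CPM in KO, against 5.25, 6.09 and 7.65 CPM in WT. Both KO groups lay above the WT group of the same temperature, and the test passed in the cold (0.74 ± 0.15, adjusted p = 0.00065) and not at room temperature (0.37 ± 0.15, adjusted p = 0.054).

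Bst2, or tetherin, which holds budding virus at the cell surface, had 14.7, 14.97 and 14.3 CPM in KO cold pools, against 10.01, 6.31 and 8.83 CPM in WT cold pools. At room temperature Bst2 had 12.9, 13.3 and 12.9 CPM in KO, against 9.59, 9.96 and 13.5 CPM in WT. The cold groups did not overlap (0.80 ± 0.15, adjusted p = 0.00027). Its fall with cold in WT (-0.39 ± 0.15, adjusted p = 0.04) missed the threshold without WT RT 3 (adjusted p = 0.26), WT cold 2 (0.22), WT cold 3, KO RT 6, KO cold 1 or KO cold 2. Samd9l, an antiviral factor that blocks translation, had 23.3, 19.6 and 18.4 CPM in KO cold pools, against 11.8, 14.2 and 13.4 CPM in WT cold pools. At room temperature Samd9l had 14.97, 15.1 and 14.9 CPM in KO, against 14.4, 11.5 and 16.2 CPM in WT. Its KO cold pools were the highest set, and its interaction of 0.55 ± 0.17 came with a rise in KO (0.45 ± 0.12, adjusted p = 0.019) and a value of -0.10 ± 0.12 in WT (adjusted p = 0.53). The rise of Samd9l in KO missed the threshold without KO RT 4 (adjusted p = 0.053), KO RT 6 (0.062) or KO cold 1 (0.12). Its interaction missed it without KO RT 6 (0.059), WT RT 3 (0.081), KO cold 1 (0.09) or WT cold 1 (0.081).

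Both ADP-ribosyltransferase genes fell with cold in WT, and both passed the interaction. Parp9 (chromosome 16, 35938470 to 35972605), which acts with the ligase Dtx3l on interferon target genes, had 16.8, 14.9 and 13.6 CPM in KO cold pools, against 9.33, 8.21 and 12.03 CPM in WT cold pools. At room temperature Parp9 had 16.1, 14.1 and 13.99 CPM in KO, against 19.2, 20.7 and 23.1 CPM in WT. As for Ddx58, the WT pools held both the highest set, at room temperature, and the lowest, in the cold. With cold, Parp9 had a log2 fold change of 0.04 ± 0.13 in KO, against -1.09 ± 0.13 in WT (adjusted p = 4.2e-06), and the interaction was 1.13 ± 0.18 (adjusted p = 0.00047). Its lower value in KO at room temperature (-0.51 ± 0.13) missed the threshold with library totals alone (adjusted p = 0.13). Parp14 (chromosome 16, 35832874 to 35871544) had 28.5, 26.8 and 26.6 CPM in KO cold pools, against 14.95, 12.8 and 16.8 CPM in WT cold pools. At room temperature Parp14 had 23.97, 24.4 and 24.1 CPM in KO, against 23.9, 19.998 and 27.5 CPM in WT. The room-temperature groups overlapped and the cold groups did not, and the interaction was 0.86 ± 0.16 (adjusted p = 0.0012).

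Ifi27, a mitochondrial and nuclear-envelope protein gene (chromosome 12, 103434211 to 103440239), was the 1 member lower in KO in the cold. It had 376, 340.1 and 351 CPM in KO cold pools, against 673, 650.4 and 558 CPM in WT cold pools. At room temperature Ifi27 had 413, 315 and 315 CPM in KO, against 500.2, 573 and 525 CPM in WT. KO and WT pools did not overlap at either temperature, with KO lower. The log2 fold change was -0.82 ± 0.11 in the cold (adjusted p = 1.5e-05) and -0.62 ± 0.11 at room temperature (adjusted p = 0.00037). Per kilobase of exon, Ifi27 was also the most abundant member, at 318 CPM averaged over the 12 pools, followed by Lgals3bp at 19.4 and Bst2 at 13.0, while Oas3 was lowest at 0.0398.

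Ifi35, an interferon-induced leucine zipper protein gene (chromosome 11, 101448407 to 101458698), had 10.2, 10.1 and 9.37 CPM in KO cold pools, against 5.06, 3.77 and 5.07 CPM in WT cold pools. At room temperature Ifi35 had 11.1, 9.09 and 10.1 CPM in KO, against 8.59, 10.8 and 11.4 CPM in WT. WT cold pools stood apart below the other 9 pools. The cold response of Ifi35 was a log2 fold change of -0.03 ± 0.13 in KO, against -1.15 ± 0.14 in WT (adjusted p = 6.2e-06), with an interaction of 1.11 ± 0.19 (adjusted p = 0.00086). Xaf1, a gene linked to cell death, had 10.97, 10.4 and 11.3 CPM in KO cold pools, against 5.47, 4.67 and 6.67 CPM in WT cold pools. At room temperature Xaf1 had 11.7, 11.5 and 12.4 CPM in KO, against 8.36, 7.17 and 10.9 CPM in WT. KO pools were above WT pools at both temperatures, and the test passed in the cold (0.95 ± 0.15, adjusted p = 6.5e-05) and at room temperature (0.43 ± 0.14, adjusted p = 0.027). The value at room temperature missed the threshold without KO RT 6 (adjusted p = 0.082), WT RT 1 (0.068) or WT RT 2 (0.14). Ifi44, Rtp4 and Lgals3bp, the secreted galectin-3-binding protein, were higher in KO in the cold by 0.81 ± 0.26, 0.66 ± 0.20 and 0.71 ± 0.14. Ifi44 missed the threshold without KO cold 1 (adjusted p = 0.1), WT cold 1 or WT cold 2, and Rtp4 without WT cold 1 (0.056). Lgals3bp fell with cold in WT (-0.42 ± 0.14, adjusted p = 0.024), except without WT RT 1, WT RT 3, WT cold 1 or WT cold 2 (adjusted p up to 0.1).

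Other genes of the pathway were read from 5 lists. Upstream, interferon transcripts themselves were near or at the limit of detection: Ifnb1 had 0 counts in all 12 libraries, and Ifng did not exceed 0.0652 CPM in any pool, under the level that 3 counts would give (0.0815 to 0.109 CPM). Of the 6 tested genes among 15 interferons and receptors, 3 were higher and 1 lower in KO in the cold, beside 25.9% and 27.8% of all genes. A single pool moved these counts: 1 was higher without WT cold 2, and 0 were lower without KO cold 3 or WT cold 2. Of these interferons and receptors 5 were higher and 0 lower with library totals alone. Ifnar1, a chain of the type I interferon receptor, had 35.04, 35.7 and 30.3 CPM in KO cold pools, against 40.9, 42.6 and 39.2 CPM in WT cold pools. Every KO cold pool was below every WT cold pool, and the difference was -0.28 ± 0.09 (adjusted p = 0.016). It missed the threshold without KO cold 3 (adjusted p = 0.081) or WT cold 2 (0.074) and was 0.16 with library totals alone, under the shift of all genes of 0.45. Ifnar2, the other chain, had -0.10 ± 0.09 (adjusted p = 0.36) and likewise changed sign with library totals alone (0.34). Ifngr1, a chain of the interferon gamma receptor, was higher in KO in the cold (0.24 ± 0.07, adjusted p = 0.012), except without WT cold 2 (adjusted p = 0.067). Ifngr2, its partner chain, fell with cold in WT (-0.48 ± 0.13, adjusted p = 0.0073).

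Of 12 JAK-STAT genes and inhibitors 7 were higher and 2 lower in KO in the cold, and 1 rose and 2 fell with cold in WT. Over all genes the shares were 25.9% higher and 27.8% lower in KO in the cold, and 23% and 23.2% rose and fell with cold in WT. Scaled by library totals alone, 9 of the JAK-STAT genes were higher and 0 lower in KO in the cold, and 0 rose and 4 fell with cold in WT. The 2 lower ones were 1 without KO cold 2, KO cold 3, WT cold 1 or WT cold 2 and where CPM of at least 1 in 6 libraries was required, and the 1 rise became 2 without KO RT 5 or WT RT 2. Tyk2, a receptor-bound kinase, had 12.7, 13.2 and 12.1 CPM in KO cold pools, against 8.02, 6.81 and 7.34 CPM in WT cold pools. The log2 fold change of Tyk2 with cold was 0.06 ± 0.11 in KO, against -0.83 ± 0.11 in WT (adjusted p = 1.8e-05), with an interaction of 0.89 ± 0.16 (adjusted p = 0.00093). Tyk2 overlaps another annotated gene, so its value is uncertain.

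Of 18 tested genes that sense nucleic acid upstream of interferon, 9 were higher and 4 lower in KO in the cold, and 3 rose and 5 fell with cold in WT. These shares, too, stand beside 25.9% higher and 27.8% lower, and 23% rising and 23.2% falling, over all genes. With library totals alone 14 of the sensing genes were higher and 2 lower in KO in the cold. The falls with cold in WT numbered 3 without WT RT 2, WT RT 3 or WT cold 1, and 2 without both KO RT 6 and WT RT 2. Mavs, the mitochondrial adaptor through which MDA5 and RIG-I signal, had 70.1, 83.2 and 70.1 CPM in KO cold pools, against 213, 248 and 253 CPM in WT cold pools. At room temperature Mavs had 90.1, 81.3 and 86.2 CPM in KO, against 85.6, 92.8 and 101 CPM in WT. With cold, its log2 fold change was -0.21 ± 0.10 in KO (adjusted p = 0.17), against 1.35 ± 0.10 in WT (adjusted p = 2.3e-08). Ticam1, the adaptor of the endosomal RNA receptor TLR3, also rose with cold in WT (0.70 ± 0.11, adjusted p = 4.5e-05), and it was lower in KO in the cold (-1.01 ± 0.11). Samhd1, a nucleotide hydrolase that restricts viruses, moved in the direction of most members, with 1.22 ± 0.10 for KO against WT in the cold (adjusted p = 1.6e-07) and -0.65 ± 0.11 for cold in WT (adjusted p = 9.4e-05).

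MHC class I presentation, the display of cell-made peptides to T cells, moved with the members in the cold. Of its 14 genes 11 were higher and 0 lower in KO in the cold (25.9% and 27.8% of all genes), with a median of 0.70. Over all genes 23% rose and 23.2% fell with cold in WT, and 7.29% and 7.56% with cold in KO. The interaction passed in 10.6% of all genes with the higher and 12.9% with the lower response in KO. Of the 14, 0 rose and 11 fell with cold in WT (median -0.61), 0 passed with cold in KO by edgeR's test (1 at an unadjusted p under 0.05, 0 by DESeq2, 2 falls by limma's voom test, median -0.10), and 8 passed the interaction in the same direction. Tap1, which carries peptides into the endoplasmic reticulum, had 7.48, 8.41 and 9.37 CPM in KO cold pools, against 3.90, 3.68 and 5.18 CPM in WT cold pools. At room temperature Tap1 had 9.58, 8.87 and 9.19 CPM in KO, against 11.8, 9.25 and 14.3 CPM in WT. WT cold pools were the lowest set, and the interaction was 1.34 ± 0.23 (adjusted p = 0.00067). Tap1 shares exon positions with Psmb9 on the opposite strand and is uncertain. H2-K1, a classical class I heavy chain, was higher in KO at both temperatures (0.91 ± 0.10 in the cold and 0.83 ± 0.10 at room temperature) and had -0.10 ± 0.10 with cold in WT (adjusted p = 0.45). Class I genes have close copies, and reads that align to several are in no count.

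Further interferon-inducible genes outside the members were 50, of which 38 were tested. In the cold 26 of them were higher and 3 lower in KO (median 0.73), against 25.9% and 27.8% of all genes. With cold 3 rose and 0 fell in KO (median 0.10), where 7.29% and 7.56% of all genes rose and fell. In WT 5 rose and 19 fell (median -0.47), where 23% and 23.2% of all genes rose and fell. The interaction passed in 14 with the higher and 2 with the lower response in KO (10.6% and 12.9% of all genes). With library totals alone, 31 of these further inducible genes were higher and 0 lower in KO in the cold, 3 rose and 21 fell with cold in WT, and 1 had the lower response. The 3 rises in KO were 1 without KO cold 1, and 1 gene fell in KO by DESeq2 and 2 by limma's voom test. Without KO cold 1 the rises in KO over all genes dropped as well, from 1109 to 601. Tdrd7, an antiviral gene of the tudor family, had 20.5, 19.04 and 16.8 CPM in KO cold pools, against 11.02, 9.89 and 10.6 CPM in WT cold pools. Its interaction was 1.03 ± 0.16 (adjusted p = 0.00032). Ifitm3, which blocks virus entry at endosomes, was higher in KO by 0.90 ± 0.10 in the cold (adjusted p = 2.2e-06) and by 0.70 ± 0.10 at room temperature (adjusted p = 4.2e-05).

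**Figure D4:**
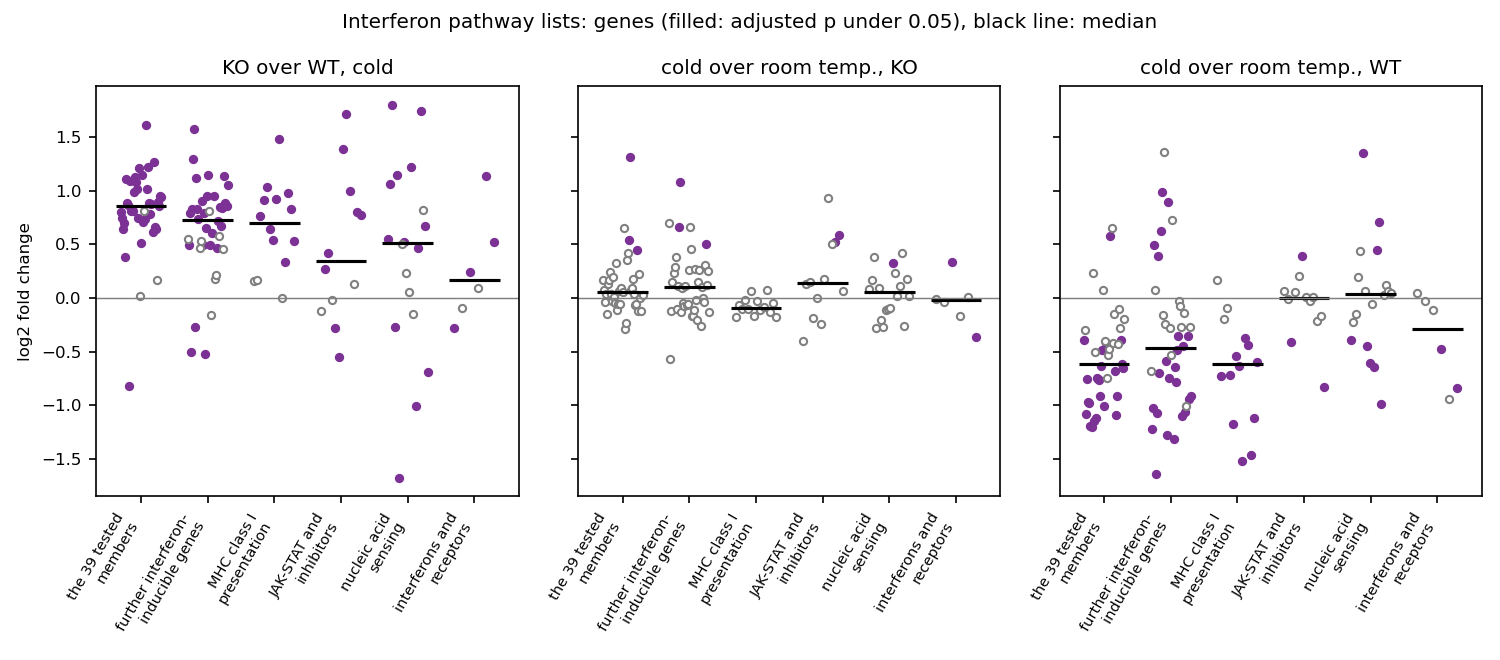
Log2 fold change (vertical axis) of each tested gene in the members and in 5 pathway lists (horizontal axis), for KO over WT in the cold, cold over room temperature in KO and cold over room temperature in WT, with filled points for an adjusted p under 0.05 and a black line at the median. The members, the further inducible genes and MHC class I presentation have medians of 0.86, 0.73 and 0.70 for KO over WT in the cold and -0.62, -0.47 and -0.61 for cold in WT.

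Transcripts of other cells of the tissue were measured beside these results. The 10 macrophage markers summed to 269.7 to 373 CPM in KO cold pools, against 103 to 106 CPM in WT cold pools, and to 235 to 301 CPM in KO, against 74.2 to 97.2 CPM in WT, at room temperature. All but Cd14 were higher in KO at both temperatures, 0 of 10 were at 0 in every library, and their medians were 1.52 in the cold and 1.40 at room temperature. For KO against WT at room temperature the median of the 39 members was 0.12. With cold in WT, 3 macrophage markers rose and 0 fell (median 0.14), and 23 of the 39 members fell. The part of macrophages in the higher level of the members in KO was not tested.

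Markers of other immune cells were low. The 4 markers of plasmacytoid dendritic cells, known as the chief makers of type I interferon, summed to 1.60 to 2.13 CPM in KO cold pools, against 0 to 1.24 CPM in WT cold pools. Their defining gene Siglech did not exceed 0.424 CPM in any pool, and Ccr9 had 1.52, 0.678 and 0.524 CPM in KO cold pools, against 0.0750, 0 and 0 CPM in WT cold pools. At room temperature the sum was 0.301 to 7.86 CPM in KO, against 0.463 to 3.81 CPM in WT, with Cox6a2, also a muscle gene, in the list. The 5 dendritic cell markers summed to 34.1 to 36.4 CPM in KO cold pools, against 23.6 to 29.4 CPM in WT cold pools, and 3 of 5 were higher in KO. At room temperature they summed to 33.5 to 47.5 CPM in KO, against 32.7 to 37.9 CPM in WT, and with cold in WT 1 of 5 fell. The dendritic cell sum was thus lowest in the WT cold pools, but most of it was 1 gene, Zbtb46. Zbtb46 averaged 29.1 CPM in KO cold and 25.3 CPM in WT cold pools, and 33.5 CPM in KO and 31.9 CPM in WT at room temperature. None of the other dendritic cell markers averaged more than 5.26 CPM in any group. The 6 T cell markers summed to 4.32 to 5.69 CPM in KO cold pools, against 1.36 to 2.85 CPM in WT cold pools, and 3 of the 5 tested were higher in KO. At room temperature they summed to 3.72 to 4.89 CPM in KO, against 1.56 to 2.61 CPM in WT. The 3 natural killer cell markers summed to 0.354 to 0.976 CPM in KO cold pools, against 0.363 to 0.412 CPM in WT cold pools. The 4 B cell markers summed to 1.26 to 1.63 CPM in KO cold pools, against 0.637 to 1.15 CPM in WT cold pools, and the 4 neutrophil markers to 1.33 to 2.48 CPM in KO, against 1.24 to 1.54 CPM in WT. At room temperature the neutrophil markers summed to 2.41 to 4.38 CPM in KO, against 0.728 to 1.47 CPM in WT, and the B cell markers to 1.81 to 2.44 CPM in KO, against 1.05 to 1.46 CPM in WT, both without overlap. The natural killer cell markers summed to 0.438 to 1.01 CPM in KO, against 0.460 to 0.762 CPM in WT, at room temperature. Their part in the results was not tested.

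The tissue's own markers and its non-immune cells also moved. The 8 brown adipocyte markers, which include the heat-making uncoupler Ucp1, summed to 13566 to 14616 CPM in KO cold pools, against 26559.8 to 29358 CPM in WT cold pools. At room temperature they summed to 12294 to 15256 CPM in KO, against 18439 to 20922 CPM in WT. Ucp1 alone had 3723, 4283 and 4207 CPM in KO cold pools, against 17543, 15936 and 14787 CPM in WT cold pools. It carried the order of WT cold above WT at room temperature. The KO sums stayed below the WT sums of the same temperature without it. Without Ucp1, left out after seeing the data, the other 7 markers summed to 9843 to 10333 CPM in KO cold pools, against 11534 to 11815 CPM in WT cold pools, and to 8686 to 10861 CPM in KO, against 11812 to 12420 CPM in WT, at room temperature. With cold in WT 2 of the 8 rose and 2 fell, with a median of -0.01. The 5 endothelial markers summed to 630.2 to 757 CPM in KO cold pools, against 587 to 603 CPM in WT cold pools, the 5 fibroblast markers to 309.5 to 409 CPM in KO, against 241 to 305 CPM in WT, and the 5 markers of smooth muscle and pericytes to 595 to 688 CPM in KO, against 432 to 434 CPM in WT. Skeletal muscle markers varied within every group, with 19.3 to 239 CPM in KO cold pools, against 2.13 to 95.4 CPM in WT cold pools, and 4.57 to 1181 CPM in KO, against 13.3 to 800.1 CPM in WT, at room temperature. Without the 2 pools richest in them (KO RT 6 and WT RT 2), 26 members fell with cold in WT, 36 were higher in KO in the cold and 16 passed the interaction. Over all genes 2886 then fell with cold in WT and 3838 were higher in KO in the cold. The interaction passed with 840 higher and 1063 lower responses in KO over all genes. The part of these other cells in the results was not tested.

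**Figure D5:**
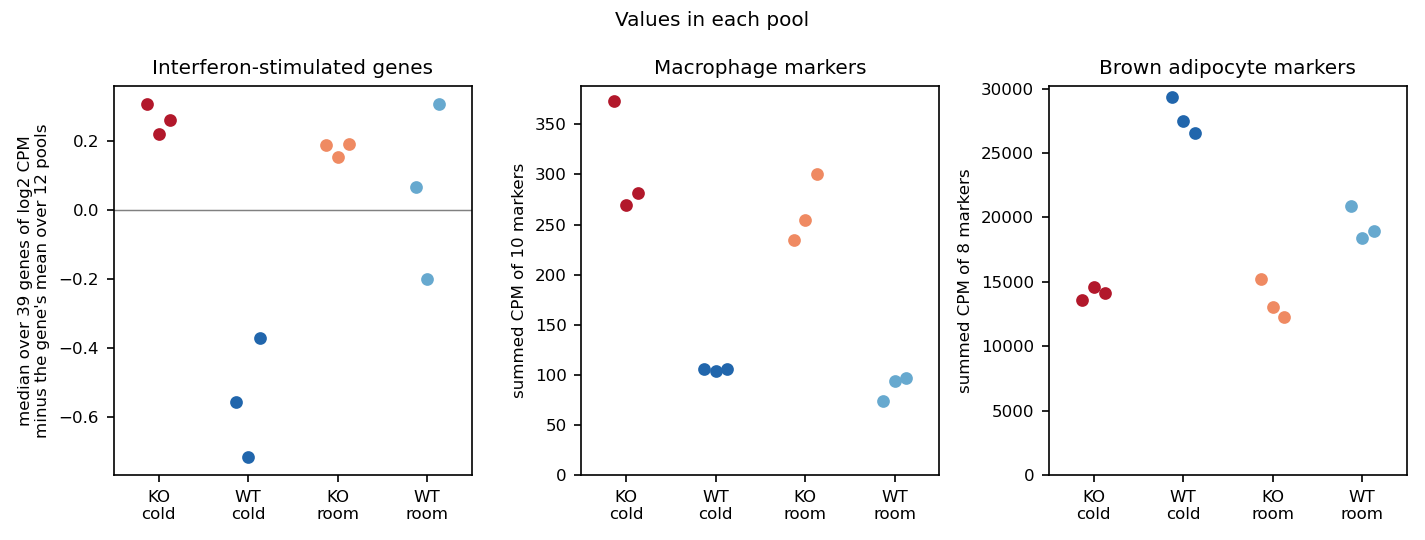
For each pool (points) of KO cold, WT cold, KO room temperature and WT room temperature, the median over the 39 members of log2 CPM minus the mean of each gene over the 12 pools (left), and the summed CPM of 10 macrophage markers (middle) and of 8 brown adipocyte markers (right). WT cold pools are lowest on the left (-0.72 to -0.37) and highest on the right, and both KO groups are above both WT groups in the middle. On the right, Ucp1 carried the order of WT cold above WT at room temperature. Without Ucp1 the WT cold sums lie at 11534 to 11815 CPM, against 11812 to 12420 CPM in WT at room temperature.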

How the data were processed

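Gene counts were deposited by the authors as 1 table per library, with reads aligned to GRCm38 by STAR and counted by HTSeq per the submitters' processing notes, without versions. The counts are labelled htseq-reverse, the name of a strand-specific counting setting. The library kit is not given in the sources used here. The 5 summary lines of each table were left out, and reads aligning to several places (26.6% to 30.2% of reads in the tables) are in no gene count. Names and exons came from an annotation of the same build.

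The 12 libraries were fitted with edgeR 4.0.16 in R 4.3.3, after filtering low counts by group (15208 genes kept, 38171 not) and TMM normalisation (factors 0.798 to 1.18), with 1 mean per group, robust quasi-likelihood dispersion and Benjamini-Hochberg adjustment. The biological coefficient of variation was 13.6%. Adjusted p-values measure the spread between pools. Alternatives used DESeq2 1.42.0, limma 3.58.1 and the settings listed in the closing section, for the members, the 5 pathway lists and the genes named from them. The fit recovered known changes in counts simulated with the same dispersion for every gene and a set of genes changed in WT cold only. The real pools vary in more ways, so this checks the code and not the calls.

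The members and lists were chosen with earlier results of these data known. All members may be named. Values in every pool are given for the transcription factors and, in each role group, for the 2 members with the smallest p for cold in WT and the 1 with the smallest p in each genotype comparison and in the interaction. From each pathway list up to 5 genes with the smallest p and the interferon receptors were eligible. The markers Ccr9, Siglech, Cox6a2, Cd14 and Zbtb46 were named after their values were seen. Replicate numbers were not used to pair pools in the main test, because the labels state no such pairing.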

Additional observations from a re-analysis of the deposited data

Results flagged for a closer look

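Each result here is a member whose cold response differed between KO and WT by a test of the difference itself (edgeR, adjusted over all genes). Each value is the log2 response to cold in KO minus that in WT, and all 14 were above 0. Among the sensors, the value was 1.12 for Ifih1 (adjusted p = 0.0007) and 1.05 for Ddx58 (0.00021). Among the GTPases it was 1.44 for Gbp7 (0.0074), 1.36 for Gbp3 (0.0016), 1.11 for Gbp2 (0.0099) and 1.06 for Irgm1 (0.0015). The ADP-ribosyltransferase genes Parp9 and Parp14 had 1.13 (0.00047) and 0.86 (0.0012). Ifit2 had 1.09 (0.0024), and Eif2ak2, which encodes PKR, had 0.82 (0.0064). Ifi35 had 1.11 (0.00086) and Trim25 had 0.61 (0.0019). Irf1 had 0.71 (0.039) and Samd9l had 0.55 (0.029), the 2 of the 14 that were lost in part of the alternatives.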

How the results depend on the processing

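The alternatives were DESeq2's median-ratio size factors, library totals alone, no filter beyond 1 count, CPM of at least 1 in 6 libraries, mitochondrially encoded genes left out, DESeq2, limma's voom test with sample weights, only the 6 libraries compared, a replicate block, each pool left out in turn, and the 2 pools richest in skeletal muscle left out. Of the members called, 28 of 35 higher in KO in the cold, 17 of 23 lower with cold in WT and 12 of 14 past the interaction kept their call under every alternative run. No member reversed a call. Among named pathway genes, Ifnar1 in the cold (0.16), Ifnar2 in the cold (0.34) and Ifngr1 at room temperature (0.0185) changed sign with library totals alone, which shifted the median of all genes by construction.

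Apart from single pools left out, counts of members moved by more than 1.5 times as follows. Calls over all genes changed with these settings too. With library totals alone, 1 member was lower in KO at room temperature, 0 rose with cold in WT and 23 passed the interaction. By limma's voom test 2 rose with cold in WT, and 6 rose and 1 fell with cold in KO. Without the 2 muscle-rich pools, 2 were higher in KO at room temperature and 1 rose with cold in KO. Ranges with each pool left out in turn follow, whether or not a count moved by that much. At room temperature 4 to 11 members were higher and 4 to 7 lower in KO, and 29 to 36 were higher in KO in the cold. With cold 17 to 26 fell and 1 to 2 rose in WT, and 0 to 4 rose in KO. The interaction passed in 12 to 20. Leaving out Oas3, chosen after seeing the data, gave 34 higher in KO in the cold, 2 rising with cold in KO and 14 past the interaction.

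Over all genes tested, the deviations of same-numbered pools had correlations of -0.27, -0.10 and -0.16 between KO and WT in the cold. Between cold and room temperature in WT they were 0.05, -0.19 and 0.23. Among the 39 members, however, the WT pools kept the same order at both temperatures, number 3 highest and number 2 lowest. Their median deviations for numbers 1, 2 and 3 were -0.02, -0.27 and 0.24 at room temperature and -0.04, -0.15 and 0.14 in the cold. In KO cold pools they were 0.05, -0.02 and -0.04. With the replicate block, 35 members were higher and 1 lower in KO in the cold, and 1 rose and 21 fell with cold in WT. The block ended the calls of Irf7 and Bst2 with cold in WT and of Eif2ak2 in the cold. Depth limited the scarce members: 3 counts equal 0.0815 to 0.109 CPM, near the level of Oas3.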
